A study of Arabidopsis thaliana with 30 samples.

Results

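The SAUR genes (small auxin up RNA) are a family of short plant genes named after their rapid transcript response to auxin, and 49 of them were followed here across Arabidopsis thaliana seedlings grown in the dark. The members were chosen by locus identifier, as the loci of SAUR1 to 10, 14 to 16, 19 to 30, 32, 36, 40, 41, 50 to 55, 59, 61 to 68, 71, 72 and 76 to 78, and all 49 were found among the 33602 genes of the deposited tables. RNA was sequenced from 30 libraries, 3 in each of 10 groups. The groups were roots and shoots of the aba2-3 line, an abscisic acid (ABA) deficient line, after 10 µM indole-3-acetic acid (IAA, the main natural auxin) or mock treatment, and roots and shoots of the Col-O line, the wild type, after 10 µM IAA, 10 µM ABA or mock treatment. ABA was given to the Col-O line only. All seedlings were 5 days old, had 1 day of light followed by 4 days of darkness, and were treated for 2 hours in liquid medium under green light before being divided where the root meets the shoot. Mock medium held ethanol, the solvent of the hormones.

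SAUR proteins are best known from the acid growth of cells. Members such as SAUR19 bind and inhibit phosphatases of the PP2C.D group, which otherwise remove a phosphate from plasma membrane proton pumps (the AHA proteins) and so switch them off. With the phosphatase inhibited the pump acidifies the cell wall, and the cell expands. Transcripts of many members are unstable and are induced within minutes by auxin, and overexpression of the SAUR19 and SAUR63 groups lengthens the hypocotyl, the elongating stem of a dark-grown seedling. ABA, in contrast, is known mostly as a growth inhibitor and stress hormone. Other members have other ties: the SAUR41 subfamily (SAUR40, SAUR41, SAUR71 and SAUR72) responds less to auxin, SAUR76 to SAUR78 bind ethylene receptors, and SAUR36 is linked to leaf senescence.

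The libraries held 3.87 to 99.3 M counts (M, mega), and the lowest but 1 held 11.8 M. Whether the 3 libraries of a group came from separate cultures is not stated, so p-values measure the spread between these samples, which may be technical. The ABA2 transcript did not separate the lines: it had 17.9 to 30.4 CPM (counts scaled to the library total after its adjustment by TMM normalization) in aba2-3 roots against 14.4 to 27.7 CPM in Col-O roots, so RNA gives no check of the genotype labels. Tissue labels were checked with 8 shoot and 8 root marker genes. The summed shoot markers had 170 to 6281 CPM in root libraries against 21135 to 75945 CPM in shoot libraries, all 8 were higher in shoots, and none was at 0 in the roots. The summed root markers had 840 to 1368 CPM in root libraries against 286 to 555 CPM in shoot libraries, and 7 of the 8 were higher in roots, CASP2 being the exception. Col-O mock shoot 1, a control of every Col-O shoot comparison, had the lowest shoot markers of the shoot libraries. They stood at 39.0% of the shoot mean, against 70.3% in the next lowest, Col-O ABA shoot 2. Its root markers, at 14.2% of the root mean, were the highest among the shoot libraries. In 5 root libraries the shoot markers reached 6.85% to 11.2% of what shoots held on average, while the remaining 10 root libraries had 0.355% to 2.06%. The 5 are aba2-3 mock root 1, Col-O IAA root 2, Col-O ABA roots 2 and 3, and Col-O mock root 3. Most members were far lower in roots than in shoots, so the counts of members called in roots are also given without these libraries. For ABA in roots they are not, since Col-O ABA root 1 alone would be left.

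Of the 49 members, 33 lie in 8 tandem clusters and 16 lie alone. SAUR19-24 on chromosome 5, SAUR26-29 on chromosome 3 and SAUR61-68 on chromosome 1 hold 18 members and are called the copy-rich clusters below. The others are SAUR1-5 with SAUR50, SAUR6-7, SAUR14-16, SAUR51-52 and SAUR53-54. Coding sequences within SAUR19-24 were 87.7% to 95.2% identical, those within SAUR26-29 77.7% to 86.3%, and those within SAUR61-68 45.6% to 89.4%. The likeness bears on counting, since a read that fits 2 copies cannot be placed. Over windows of 50 bases, SAUR62 shared 28.6% of its transcript windows with another gene, SAUR63 27.1%, SAUR67 26.5%, SAUR19 23.5% and SAUR24 14.3%, and how such reads were counted is not given in the sources used here, so splits within these clusters are uncertain. The predicted proteins are 86 to 186 residues long. The first 60 coding bases of the SAUR19-24 members show how close the copies are. Capitals mark the 12 positions at which the 6 copies differ (RefSeq, TAIR10.1, coding strand, 5′ to 3′).
SAUR19, chr5:5963246-5963305, minus strand: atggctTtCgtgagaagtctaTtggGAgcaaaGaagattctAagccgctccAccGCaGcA
SAUR20, chr5:5966521-5966580, minus strand: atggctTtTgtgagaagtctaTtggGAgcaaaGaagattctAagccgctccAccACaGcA
SAUR21, chr5:5968527-5968586, plus strand: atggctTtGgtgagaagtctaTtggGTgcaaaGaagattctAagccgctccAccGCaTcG
SAUR22, chr5:5974904-5974963, minus strand: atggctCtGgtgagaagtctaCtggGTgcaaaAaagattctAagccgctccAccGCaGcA
SAUR23, chr5:5976030-5976089, plus strand: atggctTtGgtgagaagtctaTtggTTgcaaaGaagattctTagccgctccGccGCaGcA
SAUR24, chr5:5983840-5983899, plus strand: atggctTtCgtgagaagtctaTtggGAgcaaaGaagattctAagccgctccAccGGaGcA

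SAUR2 and SAUR30 stayed under 1 CPM in every library. SAUR30 had 0 counts in all 30 libraries, and the whole of its 984-base exon is overlapped by another annotated gene. SAUR2 had 0 counts in 22 libraries and at most 0.259 CPM, in an aba2-3 IAA shoot. These 2 did not pass the filter on low counts, and the tests below cover the other 47. Strand-aware counting is not stated, so the values of SAUR7, SAUR8 and SAUR61, which also overlap an annotated gene, are uncertain. Among the 47, the highest group mean fell in Col-O IAA shoots for 22 members and in aba2-3 IAA shoots for 13. It fell in aba2-3 IAA roots for 5, in aba2-3 mock roots for 4, in Col-O ABA roots for 2 and in Col-O mock roots for 1.

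**Figure D1:**
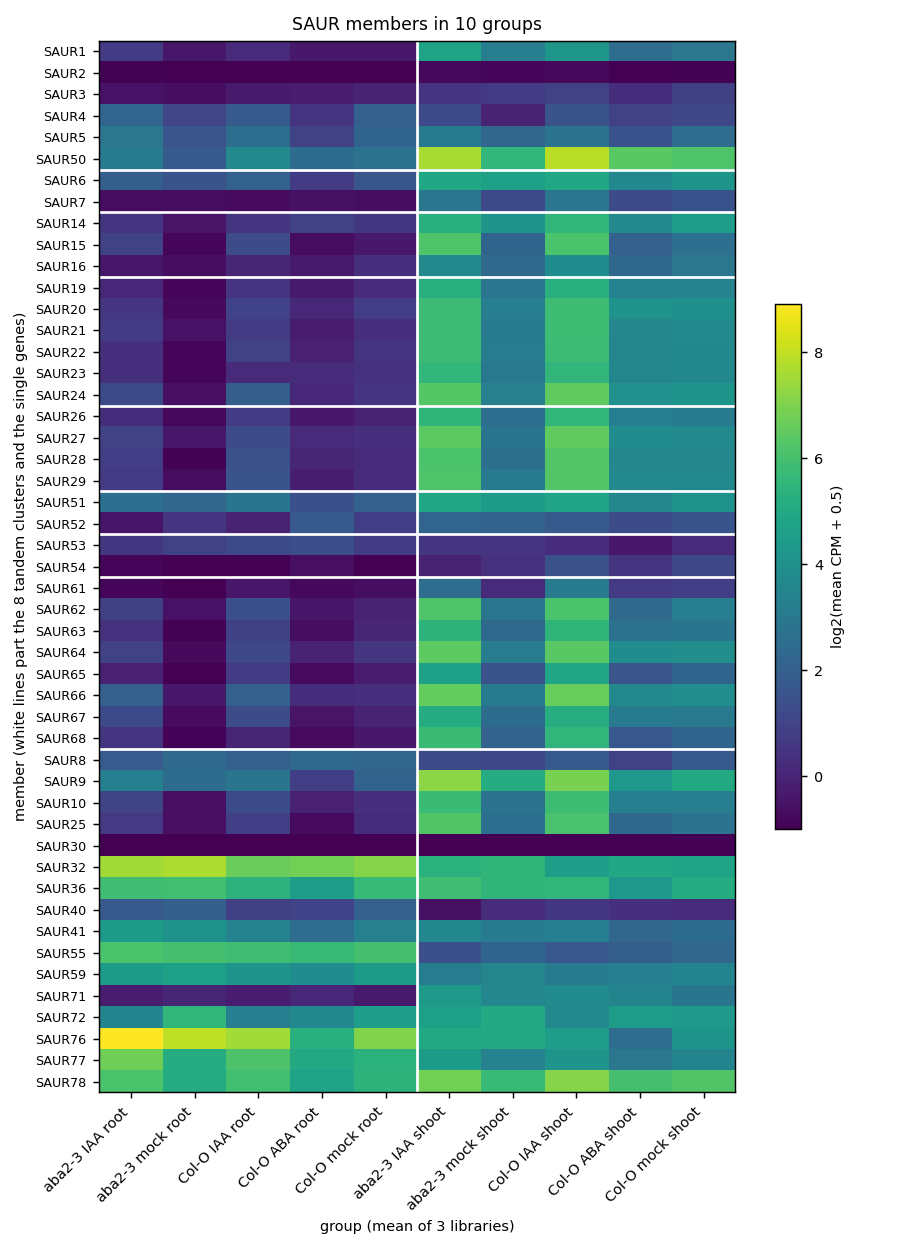
Mean CPM of each SAUR member (rows) in the 10 groups (columns, 3 libraries each), as log2 of CPM plus a pseudocount of 0.5. The SAUR19-24, SAUR26-29 and SAUR61-68 clusters are brightest in the IAA-treated shoots of both lines, while SAUR55, SAUR76 and SAUR32 are brightest in roots.

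The first question was where the genes are used without added hormone. In mock-treated Col-O seedlings most members were shoot transcripts and a small set were root transcripts. Of the 47 members, 32 were lower and 9 were higher in roots than in shoots, where 25.6% and 24.3% of all 22156 tested genes were called lower and higher (edgeR's quasi-likelihood test with Benjamini-Hochberg adjusted p under 0.05). Without the 5 root libraries with most shoot marker RNA, 32 were lower and 7 higher, where 26% and 21.3% of all genes were. The members' median log2 difference was -3.59, against 0.03 over all genes. All 18 members of the SAUR19-24, SAUR26-29 and SAUR61-68 clusters were called lower in roots. Their root and shoot libraries did not overlap, where 31.4% of all genes lay lower in roots without overlap. In these bulk tissues, fewer cells of a type and less RNA per cell cannot be told apart.

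Per kilobase of exon, the scale on which genes can be compared, the root was led by SAUR76, with 201 ± 64 RPKM (the same CPM per kilobase of exon), and SAUR32, with 186 ± 33 RPKM (SD, n = 3). SAUR76 and its relatives bind ethylene receptors, and SAUR32 is known from the apical hook. SAUR55 followed with 76.9 ± 8.6 RPKM. The difference between SAUR76 and SAUR32 was smaller than their spread. In the Col-O mock shoot SAUR50 (AT4G34760), a gene tied to light-regulated cotyledon opening, had 104.5 ± 4.8 RPKM and SAUR78 had 103 ± 17 RPKM, again closer than their spread. SAUR24 came next with 63 ± 15 RPKM. Levels per kilobase are less comparable for SAUR24 and 5 other members whose deposited exon length equals the coding length, 273 bases for SAUR24. The same holds for SAUR5, whose deposited exon of 318 bases is shorter than its coding length of 357 bases, while the remaining models are longer.

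The members with root-biased transcripts differed most clearly for SAUR55 (AT5G50760). SAUR55 had 54.6, 63.7 and 68.3 CPM in the Col-O mock roots, against 6.66, 2.09 and 4.39 CPM in the Col-O mock shoots, a log2 difference of 3.87 (SE 0.41, adjusted p = 3.41e-08). SAUR76 had 93.2, 121 and 175 CPM in roots against 19.6, 11.8 and 19.5 CPM in shoots (log2 2.94, SE 0.35, adjusted p = 2.08e-07). Both groups of libraries were fully separate for each gene. SAUR40, SAUR32, SAUR77, SAUR4, SAUR59, SAUR41 and SAUR36 were the others called higher in roots, with log2 differences of 2.51 for SAUR40 down to 0.52 for SAUR36. At the other end, SAUR54 had 1 count in the 3 root libraries together and 239 in the shoots, a shoot-to-root ratio of 123 with a counting interval of 21.8 to 4868. SAUR15, also named SAUR-AC1 and long used as an auxin reporter, had 0.0382, 0.0374 and 0.824 CPM in roots against 6.82, 5.32 and 4.76 CPM in shoots (log2 -4.41, SE 0.95, adjusted p = 0.000392). Others with differences of that size were SAUR1 (log2 -4.62, SE 0.72, adjusted p = 7.39e-06), SAUR71 (log2 -4.58, SE 0.88, adjusted p = 0.000102) and SAUR14 (log2 -4.55, SE 0.74, adjusted p = 1.37e-05). In the copy-rich clusters the most negative were SAUR24 (log2 -4.39, SE 0.85, adjusted p = 0.000111), SAUR62 (log2 -4.35, SE 1.04, adjusted p = 0.00108) and SAUR66 (log2 -4.34, SE 0.70, adjusted p = 1.33e-05). SAUR28 (log2 -4.27, SE 0.95, adjusted p = 0.000514), SAUR29 (log2 -4.25, SE 0.81, adjusted p = 0.000105) and SAUR26 (log2 -4.24, SE 0.88, adjusted p = 0.00026) followed closely. The highest root value of SAUR15 stood in Col-O mock root 3, the mock root library with the most shoot marker RNA, and the part of that RNA in the value was not tested.

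The main hormone comparison asked which members IAA changed within 2 hours. In shoots, the 18 members of the copy-rich clusters moved together: in both lines, each of them was higher in every IAA shoot library than in any mock shoot library. Summed over the 6 genes, SAUR19-24 had 279, 383 and 314 CPM in the aba2-3 IAA shoots, against 55.8, 49.9 and 43.4 CPM in the aba2-3 mock shoots. In Col-O the same sum was 361, 356 and 310.1 CPM in IAA shoots against 91.8, 73.3 and 70.7 CPM in mock shoots. SAUR61-68 had 356, 486 and 407 CPM in aba2-3 IAA shoots against 42.4, 41.97 and 36.3 CPM in aba2-3 mock shoots. Each of these pairs of groups was fully separate. SAUR61-68 had 416, 457 and 356 CPM in Col-O IAA shoots against 82.9, 49.9 and 49.7 CPM in Col-O mock shoots. SAUR26-29, the thermoresponsive subfamily, had 243, 334 and 236 CPM in aba2-3 IAA shoots against 29.2, 23.7 and 25 CPM in aba2-3 mock shoots, and 286, 327 and 258 CPM in Col-O IAA shoots against 55.6, 41.6 and 36.8 CPM in Col-O mock shoots. For each of the clusters the summed levels of the lines overlapped after IAA, while each aba2-3 mock shoot lay below each Col-O mock shoot. All 49 members together had 2047 ± 304 CPM in aba2-3 IAA shoots and 552 ± 9.3 CPM in aba2-3 mock shoots, and 2040 ± 208 CPM in Col-O IAA shoots and 610 ± 58 CPM in Col-O mock shoots (SD, n = 3 each).

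**Figure D2:**
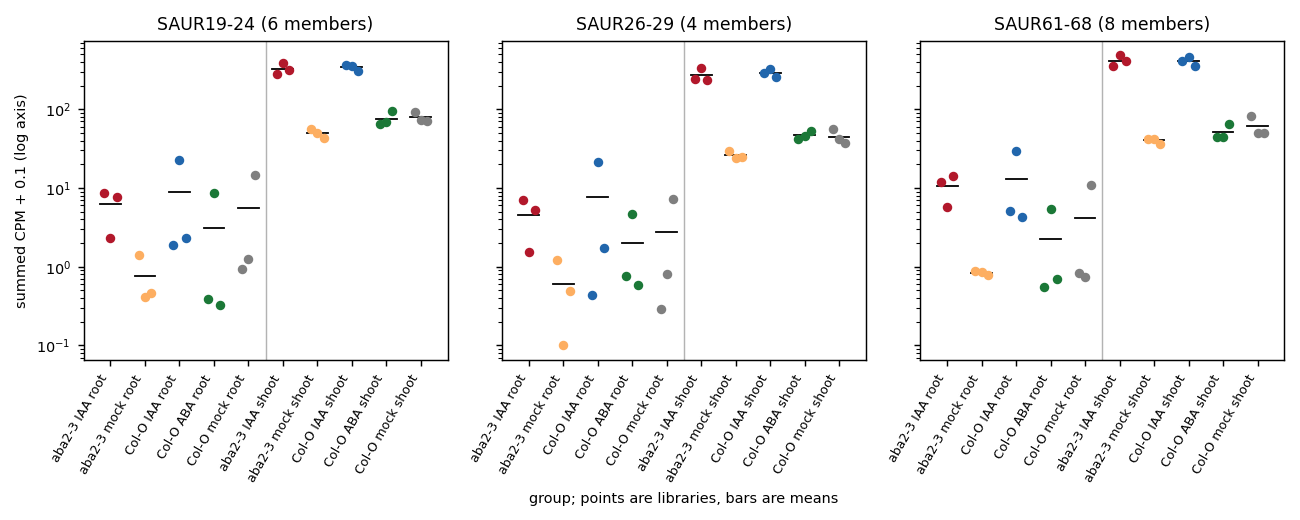
Summed CPM (plus 0.1, log axis) of the SAUR19-24, SAUR26-29 and SAUR61-68 clusters in each library, 1 point per library, by group, with roots left of shoots and lines at the group means. In shoots the IAA libraries of both lines stand above all others without overlap, and in roots Col-O IAA root 2 and Col-O mock root 3 stand apart from their own groups.

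Gene by gene, 19 of the 47 members rose and none fell in aba2-3 IAA shoots, where 1.4% of all genes were called higher and 0.515% lower, 1.92% in all. Of the members, 3 had a lower value at an unadjusted p under 0.05, and DESeq2 called 0 lower. In Col-O shoots 11 rose and 1 fell, where 0.921% of all genes were called higher and 1.3% lower. The median log2 change of the members was 1.96 in aba2-3 shoots, against -0.07 over all genes, and 1.60 in Col-O shoots, against -0.04 over all genes. The 10 members called higher in both were SAUR9, 10, 15, 25, 29, 63, 66, 67 (AT1G29510), 68 (AT1G29490) and 78, which is 52.6% of the aba2-3 list and 90.9% of the Col-O list. Without overlap, 34 members were above mock in aba2-3 shoots, where 10.2% of all genes were, and 32 in Col-O shoots, where 9.83% were. Of the 18 cluster members 12 passed the test in aba2-3 shoots, with a median log2 change of 3.10, and 5 passed in Col-O shoots, with a median of 2.59. DESeq2 called 13 members in aba2-3 shoots, 5 of them of the 18, and 11 in Col-O shoots, 3 of them of the 18. Fits on the groups of the comparison alone, or on shoots alone, called all 18 in both lines. The count of 19 was 7 without aba2-3 mock shoot 2, mock shoot 3 or IAA shoot 2, and 9 without aba2-3 mock shoot 1. The Col-O count of 12 was 3 without Col-O mock shoot 3, 5 without Col-O IAA shoot 2 and 7 without Col-O mock shoot 2. Fitted on the 15 shoot libraries alone, 29 members were called in aba2-3 and 31 in Col-O. In aba2-3 all 29 were higher, where 2.2% of all genes were called higher and 0.442% lower. In Col-O 30 were higher and 1 lower, where 1.7% and 0.921% of all genes were.

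The single gene with the highest change in both lines was SAUR15 (AT4G38850). SAUR15 had 58.5, 90.5 and 67.5 CPM in aba2-3 IAA shoots, against 6.07, 2.86 and 3.31 CPM in aba2-3 mock shoots, a log2 change of 4.13 (SE 0.75, adjusted p = 0.00171). In Col-O it had 69.8, 70.98 and 61.6 CPM in IAA shoots against 6.82, 5.32 and 4.76 CPM in mock shoots (log2 3.58, SE 0.72, adjusted p = 0.00624). Neither line's groups overlapped, and both calls held without any 1 library. SAUR68 had 44.1, 65.7 and 52.02 CPM in aba2-3 IAA shoots against 4.34, 3.86 and 3.28 CPM in aba2-3 mock shoots (log2 3.82, SE 0.66, adjusted p = 0.00118). It had 43.4, 52.8 and 40.1 CPM in Col-O IAA shoots against 5.90, 3.26 and 2.93 CPM in Col-O mock shoots (log2 3.50, SE 0.65, adjusted p = 0.00304). SAUR63, whose overexpression lengthens hypocotyls and stamen filaments, had 37.9, 47.9 and 40.9 CPM in aba2-3 IAA shoots and 4.99, 5.41 and 4.29 CPM in aba2-3 mock shoots, with no overlap (log2 3.11, SE 0.71, adjusted p = 0.0165). In Col-O shoots the SAUR63 log2 change was 2.75 (SE 0.69, adjusted p = 0.0331). Of the other cluster members called in aba2-3 shoots, SAUR27 changed by log2 3.66 (SE 0.89, adjusted p = 0.0269), SAUR28 by 3.56 (SE 0.81, adjusted p = 0.0152) and SAUR29 by 3.19 (SE 0.68, adjusted p = 0.00945). In SAUR61-68, SAUR62 changed by log2 3.38 (SE 0.85, adjusted p = 0.0334), SAUR64 by 3.39 (SE 0.87, adjusted p = 0.0375) and SAUR66 by 3.57 (SE 0.60, adjusted p = 0.000804). SAUR24 changed by log2 3.03 (SE 0.72, adjusted p = 0.0223), and SAUR21, SAUR26 and SAUR67 also rose, by log2 2.73, 3.03 and 2.76. In Col-O shoots SAUR66 changed by log2 2.79 (SE 0.57, adjusted p = 0.00754), SAUR29 by 2.63 (SE 0.66, adjusted p = 0.0334) and SAUR67 by 2.22 (SE 0.48, adjusted p = 0.0121).

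Outside the clusters, the responses were uneven. SAUR9 had 128, 165 and 142 CPM in aba2-3 IAA shoots against 36.8, 30.8 and 36.4 CPM in aba2-3 mock shoots (log2 2.07, SE 0.36, adjusted p = 0.00129), and rose in Col-O shoots (log2 1.88, SE 0.36, adjusted p = 0.00409). SAUR25 rose by log2 3.71 (SE 0.73, adjusted p = 0.00409) in aba2-3 shoots and log2 3.40 (SE 0.71, adjusted p = 0.00895) in Col-O shoots. SAUR10, a gene tied to branch angle, rose by log2 3.05 (SE 0.66, adjusted p = 0.00978) in aba2-3 shoots and log2 2.65 (SE 0.64, adjusted p = 0.0257) in Col-O shoots. SAUR50, which led the mock shoots per kilobase, had 176, 219 and 201 CPM in aba2-3 IAA shoots against 46.7, 48.7 and 43.6 CPM in aba2-3 mock shoots and was called there (log2 2.1, SE 0.55, adjusted p = 0.0463). It had 244, 253 and 217 CPM in Col-O IAA shoots against 73.7, 69.1 and 75.7 CPM in Col-O mock shoots, with no overlap, but did not pass the test (log2 1.71, SE 0.55, adjusted p = 0.0987). SAUR78 rose in both lines with small changes, log2 1.14 (SE 0.18, adjusted p = 0.000422) in aba2-3 shoots and log2 0.88 (SE 0.18, adjusted p = 0.00722) in Col-O shoots. SAUR41 passed the test in Col-O shoots (log2 0.84, SE 0.21, adjusted p = 0.0318) and SAUR77 in aba2-3 shoots (log2 1.02, SE 0.24, adjusted p = 0.0232). SAUR72 was the 1 member that fell, in Col-O shoots, to 12.7, 10.3 and 13.9 CPM with IAA, against 16.6, 21.5 and 22.9 CPM in mock (log2 -0.72, SE 0.19, adjusted p = 0.0377). On the own groups, and without the 5 root libraries with most shoot markers, this call was lost and 0 members were called lower. Of all genes 0.0812% and 0.957% were called lower in these fits.

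The smaller clusters did not move alike. SAUR14-16 had 107, 149.8 and 114 CPM in aba2-3 IAA shoots against 26.98, 26.8 and 23.4 CPM in aba2-3 mock shoots, and of its 3 members SAUR15 was called. SAUR6-7 had 34.6, 43.2 and 34.4 CPM in aba2-3 IAA shoots against 15.9, 31.6 and 30.6 CPM in aba2-3 mock shoots. Its groups were separate by a narrow margin there. In Col-O shoots SAUR6-7 had 38.9, 35.9 and 34.6 CPM with IAA against 18.1, 18.8 and 20.6 CPM in mock, a wider gap. Neither member was called in either line. SAUR51-52 had 27, 42.9 and 28.7 CPM in aba2-3 IAA shoots against 20.3, 26.4 and 26.1 CPM in aba2-3 mock shoots, also separate and not called. In Col-O its groups overlapped, with 23.9, 36.6 and 30.6 CPM in IAA shoots against 8.79, 20.2 and 28.0 CPM in mock shoots. SAUR53-54 overlapped, with 1.05, 2.33 and 1.04 CPM in aba2-3 IAA shoots against 1.53, 2.04 and 1.77 CPM in aba2-3 mock shoots. In SAUR1-5 with SAUR50, SAUR50 made up most of the shoot sum, while SAUR1 had 18.2, 30.6 and 30.8 CPM in aba2-3 IAA shoots against 9.88, 7.63 and 9.11 CPM in aba2-3 mock shoots without being called. Over the 8 hormone and line comparisons, 27 of the 47 members were called at least once and 20 never, while 33.2% of all 22156 tested genes were called at least once. The 20 are SAUR1, 3, 7, 8, 14, 16, 19, 20, 22, 23, 32, 40, 51, 53, 54, 55, 59, 61, 65 and 71.

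**Figure D3:**
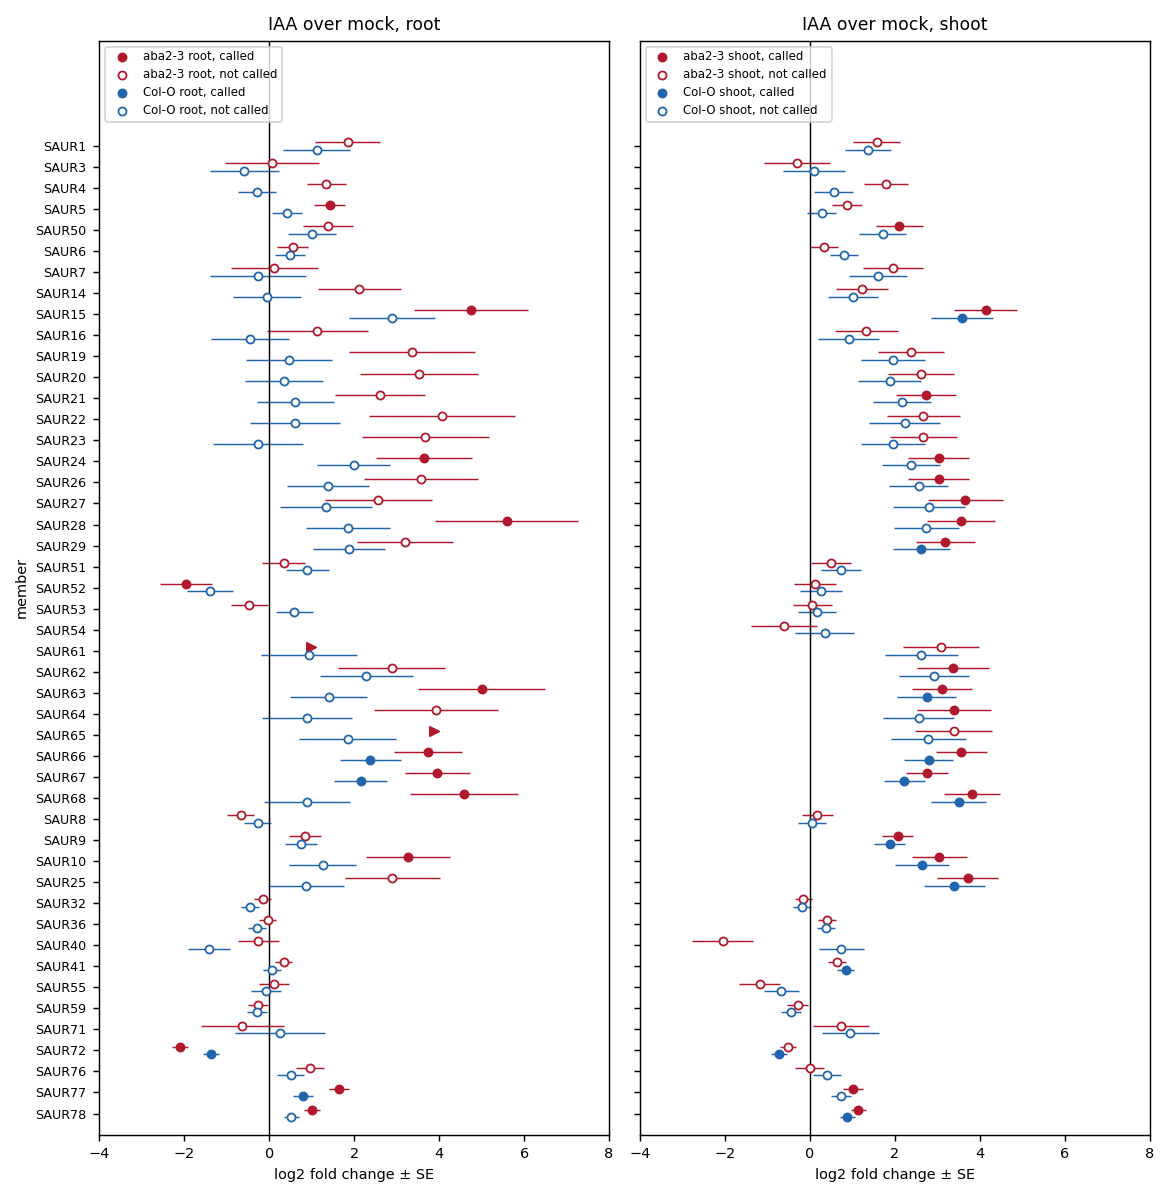
Log2 fold change of each tested member with IAA over mock, in roots (left) and shoots (right) of aba2-3 and Col-O, with bars of 1 SE and filled symbols for members that passed the test. Triangles are lower bounds for SAUR61 and SAUR65 in aba2-3 roots, where mock libraries had 0 counts, and SAUR54 in roots is left out. Most cluster members lie right of 0 in shoots, and SAUR72 lies left of 0 in all 4 comparisons.

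In roots, 11 members rose and 2 fell with IAA in aba2-3, where 7.02% of all genes were called higher and 4.82% lower. In Col-O roots 3 rose and 1 fell, where 2.64% of all genes were called higher and 2.92% lower, 5.57% in all. SAUR66, SAUR67 and SAUR77 rose in both lines, and SAUR72 fell in both. The median log2 change of the members was 1.64 in aba2-3 roots, or 1.53 with members at 0 placed at their bound, and 0.59 in Col-O roots. The count of 13 in aba2-3 roots was 7 without any 1 mock library, and it was 29 without the 5 root libraries rich in shoot markers. Of the 29, 28 were higher and 1 lower, where 6.48% and 4.62% of all genes were. The count of 4 in Col-O roots was 1 without Col-O mock root 1, mock root 2 or IAA root 2, and 7 without mock root 3. Without the 5 libraries it was 5, among them 3 of the 4, SAUR77 not passing (adjusted p = 0.142). Of the 5, 4 were higher and 1 lower, where 1.72% and 1.75% of all genes were.

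Of the 4 Col-O root libraries set apart by shoot markers, 3 had high levels of the 18 cluster genes and 1 did not. The sum of the 18 had 7.08, 72.9 and 8.05 CPM in the Col-O IAA roots, against 1.76, 2.51 and 32.2 CPM in the Col-O mock roots, so the groups overlapped. The 72.9 CPM belongs to Col-O IAA root 2, with shoot markers at 8.30% of the shoot level, and the 32.2 CPM to Col-O mock root 3, with 6.87%. The remaining 4 libraries of these groups had shoot markers at 0.401% to 0.539%. In the Col-O ABA roots the sum was 1.42, 18.4 and 1.32 CPM, with shoot markers at 0.728%, 11.2% and 7.34%, so Col-O ABA root 3 had the lowest sum of the Col-O roots. In aba2-3 roots the sum of the 18 was 27.1, 9.27 and 27.1 CPM with IAA, against 3.21, 1.08 and 1.45 CPM in mock, with no overlap. The shoot markers there were at 0.355%, 2.06% and 0.704% in the IAA roots and at 6.85%, 1.36% and 0.554% in the mock roots, so the IAA roots as a group did not have more of them. The part of shoot RNA in each root value was not tested.

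**Figure D4:**
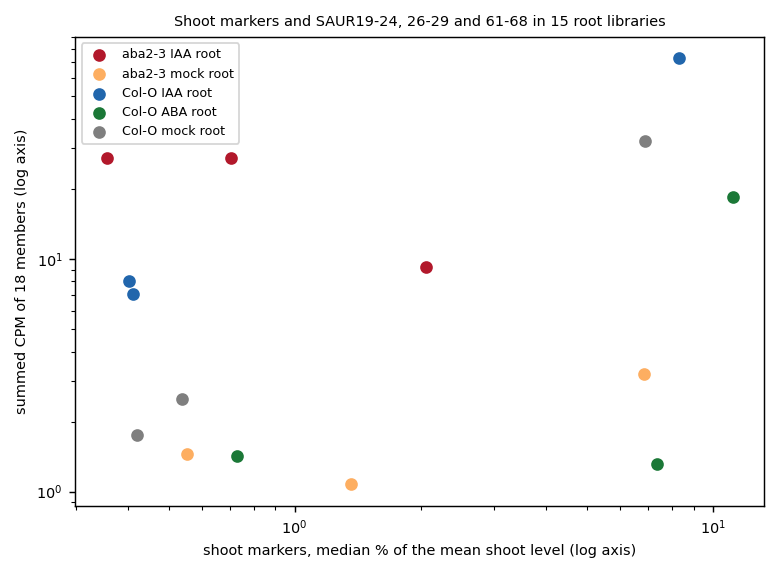
Summed CPM of the 18 members of the SAUR19-24, SAUR26-29 and SAUR61-68 clusters (log axis) against the shoot marker level, as a percent of its mean in shoots, in the 15 root libraries, by group. The aba2-3 IAA roots reach 9.27 to 27.1 CPM at 0.355% to 2.06%, and Col-O IAA root 2 has 72.9 CPM at 8.30%.

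SAUR66 and SAUR67 were the copy-rich cluster genes called in the roots of both lines. SAUR66 (AT1G29500) had 4.21, 2.47 and 4.27 CPM in aba2-3 IAA roots, against 0.347, 0.382 and 0.109 CPM in aba2-3 mock roots (log2 3.73, SE 0.80, adjusted p = 0.00277). In Col-O it had 2.81, 6.11 and 1.90 CPM in IAA roots against 0.115, 0.0748 and 2.11 CPM in mock roots, which overlapped (log2 2.38, SE 0.71, adjusted p = 0.0485). SAUR67 rose by log2 3.96 (SE 0.76, adjusted p = 0.00115) in aba2-3 roots and log2 2.15 (SE 0.62, adjusted p = 0.0418) in Col-O roots. Both Col-O calls were lost in a fit on the own groups (adjusted p = 0.271 for SAUR66 and 0.228 for SAUR67), on roots alone, with the replicate block and without any 1 of Col-O IAA roots 1 and 2 and mock roots 1 and 2, and SAUR66 also by DESeq2. In aba2-3 a fit on roots alone kept 5 of the 13 calls, and the SAUR66 call was among those lost (adjusted p = 0.0525). That fit called 5 members higher and 1 lower, where 6.37% and 4.24% of all genes were. Of these 6 members, 1 was in the copy-rich clusters. Several other aba2-3 calls rest on very few mock counts. SAUR28 had 133 counts in the 3 IAA roots against 2 in the mock roots, a ratio of 65.3 with a counting interval of 17.7 to 545. SAUR63 had 82 against 2 counts, a ratio of 40.3 (10.8 to 338), and SAUR68 had 88 against 3 counts, a ratio of 28.8 (9.54 to 142). SAUR65 had 45 counts against 0 and was at least 14.7-fold higher at a floor of 3 counts over the group, and SAUR61 had 6 against 0 and was at least 1.96-fold higher. Neither was called. These intervals cover counting error only. SAUR15 also rose in aba2-3 roots, by log2 4.76 (SE 1.34, adjusted p = 0.0208), as did SAUR24, by 3.64 (SE 1.12, adjusted p = 0.0343), and SAUR10, by 3.27 (SE 0.98, adjusted p = 0.0305). These changes also rest on few mock counts. The aba2-3 mock roots had 0, 4 and 0 counts of SAUR15, 10, 1 and 1 of SAUR24, and 4, 2 and 7 of SAUR10.

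Members that are abundant in roots had more counts behind their values. SAUR77 (AT1G17345) had 86.8, 135 and 98.9 CPM in aba2-3 IAA roots against 34.8, 37.3 and 30.7 CPM in aba2-3 mock roots (log2 1.64, SE 0.23, adjusted p = 4.77e-05). It had 58.7, 71.1 and 78.7 CPM in Col-O IAA roots against 34.5, 43.03 and 42.4 CPM in Col-O mock roots (log2 0.80, SE 0.23, adjusted p = 0.0404). Neither pair of groups overlapped. SAUR78 rose in aba2-3 roots (log2 1.01, SE 0.18, adjusted p = 0.000635) and was not called in Col-O roots (log2 0.52, SE 0.18, adjusted p = 0.0942). SAUR5 rose in aba2-3 roots by log2 1.43 (SE 0.36, adjusted p = 0.0109), and SAUR52 fell there (log2 -1.96, SE 0.61, adjusted p = 0.035). SAUR76, which led the Col-O mock roots per kilobase, had 364, 666 and 414 CPM in aba2-3 IAA roots and 315, 268 and 160.0 CPM in aba2-3 mock roots. The groups did not overlap, but SAUR76 did not pass the test (log2 0.96, SE 0.33, adjusted p = 0.0574). SAUR55, SAUR59 and SAUR32, the other abundant root members, had log2 changes of 0.12, -0.27 and -0.16 in aba2-3 roots, and none was called.

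Whether the IAA response differed between tissues or lines was tested directly. No member passed the tissue-by-IAA test in Col-O, where 8 had an unadjusted p under 0.05 and DESeq2 called 0, while 0.997% of all genes were called, 0.542% with a higher and 0.456% with a lower response in roots. This count was 8 without Col-O IAA root 2 and 1 without either Col-O IAA root 1 or IAA shoot 3. None passed the genotype-by-IAA test in roots, where 4 (SAUR4, SAUR23, SAUR72 and SAUR77) had an unadjusted p under 0.05, DESeq2 called 0 and 1.32% of all genes were called. Without Col-O IAA root 2, 7 members passed it. Without the 5 libraries with most shoot markers 7 also passed, 5 of them in the copy-rich clusters, where 0.673% of all genes were called higher. With the shoot and root markers as covariates 15 passed, 13 of them in these clusters, where 1.58% of all genes were called higher. Each of these members had a higher response in aba2-3. Fits on the own groups, on roots alone and with the replicate block called 0. In shoots the genotype-by-IAA test called 0 members, with 1 (SAUR40) at an unadjusted p under 0.05 and 0 by DESeq2, and 0.00451% of all genes.

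The members called with ABA in the edgeR fit on all 30 libraries were all lower. In Col-O roots 9 members fell and none rose, where 7.4% of all genes were called lower and 8.31% higher. At an unadjusted p under 0.05, 2 members were higher in ABA roots, and DESeq2 called 1 higher. In Col-O shoots 3 fell and none rose, where 4.67% of all genes were called lower and 4.98% higher, 9.65% in all. None was higher in ABA shoots at an unadjusted p under 0.05, and DESeq2 called 0 higher. In both tissues 13 members lay below mock without overlap, against 19.1% of all genes in roots and 13.8% in shoots. Above mock without overlap lay 2 members in roots and 0 in shoots, against 15.3% and 12.2% of all genes. SAUR5, SAUR36 and SAUR76 fell in both, which is 33.3% of the root list and the whole of the shoot list. Of these 3 shoot calls 1 was kept on the own groups. The marker covariates, the replicate block and the fit without the 5 libraries kept 2 each, and DESeq2 and shoots alone kept 3. None of the 18 members of the copy-rich clusters was called in either tissue, none had an unadjusted p under 0.05, DESeq2 called 0, and their median log2 change was -1.19 in roots and -0.09 in shoots. With the marker covariates, however, 28 members were called in roots, all lower, 14 of them of the 18, where 8.44% of all genes were lower. In shoots 1 of the 18, SAUR62, was called lower on shoot libraries alone and without the 5 libraries. On shoot libraries alone 6 members were called lower and 1 higher, where 4.4% and 6.76% of all genes were. Col-O ABA roots 2 and 3 and Col-O mock root 3 are among the libraries with more shoot marker RNA. Without the 5 such libraries Col-O ABA root 1 is the only ABA root library, too few for a count of calls in roots. The ABA and IAA comparisons in Col-O share their mock libraries.

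SAUR76 (AT5G20820) fell to 32.9, 42 and 41.2 CPM in Col-O ABA roots, against 93.2, 121 and 175 CPM in Col-O mock roots (log2 -1.74, SE 0.34, adjusted p = 0.000475). In shoots it fell to 3.17, 5.48 and 7.26 CPM with ABA, against 19.6, 11.8 and 19.5 CPM in mock (log2 -1.68, SE 0.35, adjusted p = 0.00177). Neither tissue's groups overlapped. SAUR36 (AT2G45210) had 19.8, 24.8 and 24.4 CPM in ABA roots against 58, 41.4 and 51.9 CPM in mock roots (log2 -1.13, SE 0.21, adjusted p = 0.000295), and 11, 21.7 and 24.2 CPM in ABA shoots against 41.1, 30.8 and 33.5 CPM in mock shoots (log2 -0.89, SE 0.21, adjusted p = 0.00594). These groups were also separate, with ABA lower. SAUR5 fell in roots (log2 -1.54, SE 0.37, adjusted p = 0.00418) and in shoots (log2 -1.17, SE 0.36, adjusted p = 0.0397). SAUR4, its cluster neighbour, had 1.13, 0.854 and 0.752 CPM in ABA roots against 3.86, 2.96 and 4.02 CPM in mock roots (log2 -1.97, SE 0.47, adjusted p = 0.00428). SAUR9 (log2 -1.57, SE 0.42, adjusted p = 0.00967) and SAUR6 (log2 -1.18, SE 0.39, adjusted p = 0.0388) also fell in ABA roots. So did SAUR41 (log2 -0.86, SE 0.21, adjusted p = 0.00467), SAUR78 (log2 -0.67, SE 0.18, adjusted p = 0.0113) and SAUR72, described below. SAUR9 and SAUR6 are also shoot transcripts, and their highest mock root value stood in Col-O mock root 3.

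Without added hormone few members were called between the lines. SAUR72 and SAUR41 were called higher in aba2-3 mock roots than in Col-O mock roots, and no member was called lower, where 3.26% of all genes were called higher and 3.92% lower, 7.19% in all. Both belong to the SAUR41 subfamily, of which SAUR40 and SAUR71 were not called. In roots 12 members were lower in aba2-3 at an unadjusted p under 0.05, 9 of them in the copy-rich clusters, and DESeq2 called 4 lower. Without the 5 libraries 4 were higher and 1 lower, where 3.13% and 3.01% of all genes were. With the marker covariates 4 were higher and 10 lower, 7 of the 14 in these clusters, where 4.18% and 5.07% of all genes were called higher and lower. The Col-O mock roots include mock root 3, where these clusters summed to 32.2 CPM, against 1.76 and 2.51 CPM in the other two libraries. In mock shoots SAUR72 alone was called higher and no member lower, where 0.853% and 1.78% of all genes were. This call was lost on the own groups, where 0 members were higher and 1 lower, against 0.537% and 0.776% of all genes. It was also lost with the marker covariates, where 2 other members were higher and 0 lower, against 1.1% and 1.55% of all genes. At an unadjusted p under 0.05, 3 members were lower, and DESeq2 called 2 lower. The root count was 1 without Col-O mock root 1, Col-O mock root 2, aba2-3 mock root 1 or aba2-3 mock root 3. The shoot count was 0 without Col-O mock shoot 1, Col-O mock shoot 2, aba2-3 mock shoot 2 or aba2-3 mock shoot 3, and 2 without aba2-3 mock shoot 1. SAUR41 had 18.2, 12.97 and 17.7 CPM in aba2-3 mock roots against 9.43, 7.48 and 11.6 CPM in Col-O mock roots, with no overlap (log2 0.78, SE 0.21, adjusted p = 0.0218). Below Col-O without overlap lay 20 members in aba2-3 mock shoots, against 11.6% of all genes, and 12 of these 20 belong to the copy-rich clusters. The cluster members' median log2 difference in shoots was -0.64, none passed the test, none had an unadjusted p under 0.05, and DESeq2 called 0. On shoot libraries alone 7 members were called lower, where 2.82% of all genes were, 6 of them of these clusters (SAUR20, SAUR24, SAUR27, SAUR28, SAUR64 and SAUR66), and without the 5 libraries 2 were, with SAUR24 from these clusters. The genotype comparison in roots and the ABA comparison in roots share the Col-O mock roots.

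SAUR72 (AT3G12830) was called in 6 of the 8 hormone and line comparisons, more than any other member. In fits on the own groups SAUR72 lost each of its calls in shoots. In roots it had 10.4, 8.33 and 12.7 CPM in aba2-3 IAA, 42.7, 38.02 and 54.3 CPM in aba2-3 mock, 9.10, 8.29 and 9.23 CPM in Col-O IAA, 12.1, 9.30 and 14.4 CPM in Col-O ABA and 21.8, 21.97 and 24.8 CPM in Col-O mock. IAA and ABA roots lay below the mock roots of their line, and aba2-3 mock roots above Col-O mock roots, each without overlap. The log2 change with IAA was -2.09 (SE 0.19, adjusted p = 7.23e-08) in aba2-3 roots and -1.36 (SE 0.19, adjusted p = 6.03e-05) in Col-O roots, and both calls held without any 1 library. With ABA it was -0.94 (SE 0.19, adjusted p = 0.000631) in Col-O roots and 0.09 (SE 0.18, adjusted p = 0.825) in Col-O shoots, the second not called, and the difference between the tissues was -1.03 (SE 0.26, adjusted p = 0.0397). SAUR72 was the 1 member called for that difference, where 1.72% of all genes were called in all and 0.903% with a higher response in roots, and the call was lost without any of 10 of the 12 libraries in it. It was also lost with the marker covariates (adjusted p = 0.0969), without the 5 libraries (0.182) and on the own groups (0.0985). Between lines it was 0.98 (SE 0.18, adjusted p = 0.00202) in mock roots and 0.70 (SE 0.18, adjusted p = 0.0368) in mock shoots. The mock shoot call was lost on the own groups and with the marker covariates. In shoots SAUR72 had 23.95, 21.2 and 25.1 CPM in aba2-3 IAA and 26.9, 35.7 and 36.9 CPM in aba2-3 mock, and was not called (log2 -0.51, SE 0.19, adjusted p = 0.237).

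**Figure D5:**
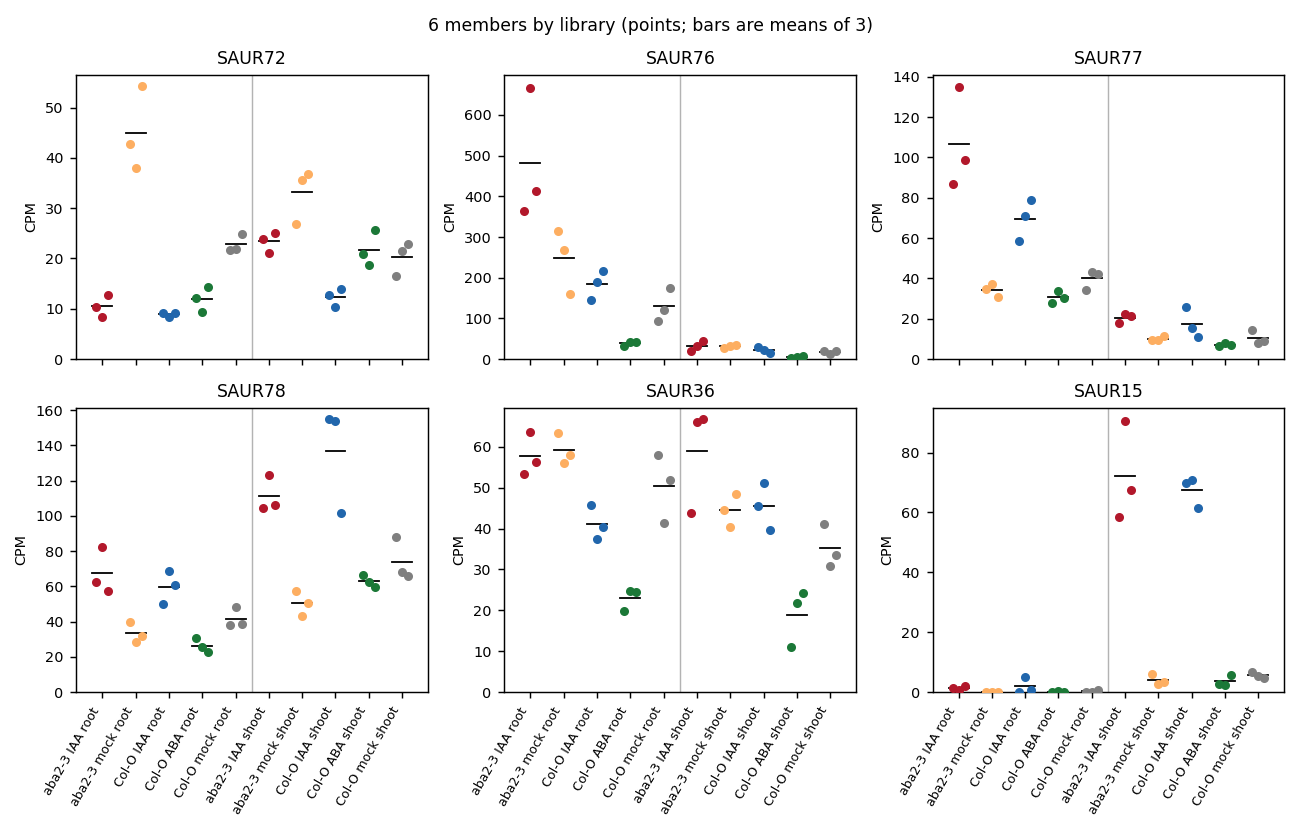
CPM of SAUR72, SAUR76, SAUR77, SAUR78, SAUR36 and SAUR15 in each library (points) with group means (lines), by group, with roots left of shoots. SAUR72 is lower in IAA roots than in mock roots of both lines, SAUR76 and SAUR36 are lowest with ABA, and SAUR15 is high in the IAA shoots.

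Promoters were searched because members moved together. In the 250 bases upstream of each annotated start, 7 of 49 members (14.3%) held TGTCTC, the classical auxin response element, on either strand, against 10.9% of 27443 genes. They were SAUR7 with 3 copies, SAUR66 with 2, and SAUR15, SAUR20, SAUR22, SAUR62 and SAUR67 with 1 each. TGTCGG was in 2 members (4.08%, against 4.16% of genes), the G-box CACGTG in 1 (2.04%, against 6.49%), and ACGTGNC, a motif of ABA-responsive promoters, in 4 (8.16%, against 8.57%). CATATG was in 8 members (16.3%, against 7.12%), SAUR6, SAUR8, SAUR9, SAUR20, SAUR21, SAUR22, SAUR24 and SAUR64. Of these SAUR20, SAUR21, SAUR22 and SAUR24 lie in the same tandem cluster, so their matches may not be separate. CACGTG can overlap ACGTGNC. Of the 19 members that rose with IAA in aba2-3 shoots, 4 held TGTCTC in this window (SAUR15, SAUR62, SAUR66 and SAUR67). A match is only a run of letters. The windows of the members with the most distinct values are given below (RefSeq, TAIR10.1, sense strand of each gene, 5′ to 3′, capitals mark motif matches). SAUR15 and SAUR66 rose with IAA, SAUR72 fell with it, and SAUR36 fell with ABA.
SAUR15, chr4:18125807-18126056, plus strand: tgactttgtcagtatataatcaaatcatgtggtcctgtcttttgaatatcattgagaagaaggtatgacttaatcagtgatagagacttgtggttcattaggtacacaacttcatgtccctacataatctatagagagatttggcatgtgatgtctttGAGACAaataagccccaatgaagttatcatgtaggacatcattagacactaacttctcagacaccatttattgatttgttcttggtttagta
SAUR66, chr1:10320761-10321010, plus strand: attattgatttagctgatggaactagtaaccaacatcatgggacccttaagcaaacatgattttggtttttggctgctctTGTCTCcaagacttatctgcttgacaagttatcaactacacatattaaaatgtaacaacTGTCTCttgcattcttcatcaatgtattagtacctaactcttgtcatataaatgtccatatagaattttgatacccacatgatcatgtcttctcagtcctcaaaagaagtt
SAUR72, chr3:4079628-4079877, minus strand: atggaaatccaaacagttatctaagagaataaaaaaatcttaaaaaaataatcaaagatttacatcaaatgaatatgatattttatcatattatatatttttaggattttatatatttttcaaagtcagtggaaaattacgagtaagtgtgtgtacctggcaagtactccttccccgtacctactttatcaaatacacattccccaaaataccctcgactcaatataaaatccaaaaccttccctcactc
SAUR36, chr2:18641313-18641562, plus strand: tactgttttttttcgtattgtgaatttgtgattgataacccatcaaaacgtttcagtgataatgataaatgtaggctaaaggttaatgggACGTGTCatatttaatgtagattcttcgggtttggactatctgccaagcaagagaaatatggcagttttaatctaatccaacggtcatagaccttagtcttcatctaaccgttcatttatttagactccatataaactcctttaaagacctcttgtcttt

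The partners of SAUR action, fixed as lists of 9 PP2C.D phosphatases and 11 AHA pumps, were followed beside the members. Of the 9 tested PP2C.D genes 2 rose and none fell with IAA in the shoots of each line, PP2C.D1 and PP2C.D2, where 1.4% of all genes rose in aba2-3 shoots and 0.921% in Col-O shoots. PP2C.D1 had 294, 292 and 255 CPM in aba2-3 IAA shoots against 82.8, 80.8 and 91.9 CPM in aba2-3 mock shoots (log2 1.72, SE 0.25, adjusted p = 0.000147), and rose in Col-O IAA shoots by log2 1.99 (SE 0.25, adjusted p = 2.49e-05). With ABA it fell in Col-O roots (log2 -0.82, SE 0.26, adjusted p = 0.0305) and shoots (log2 -1.07, SE 0.25, adjusted p = 0.0057). In IAA-treated roots PP2C.D1 rose in both lines and PP2C.D7 fell in aba2-3 (log2 -0.82, SE 0.18, adjusted p = 0.00289). Of 10 tested AHA genes, those called with IAA were all lower: 3 in aba2-3 roots, where 4.82% of all genes fell, 1 in Col-O roots, where 2.92% fell, and 2 in Col-O shoots, where 1.3% fell. AHA3, a pump of phloem companion cells, fell with IAA in Col-O roots (log2 -0.88, SE 0.22, adjusted p = 0.0169), Col-O shoots (log2 -0.92, SE 0.22, adjusted p = 0.021) and aba2-3 roots (log2 -0.73, SE 0.22, adjusted p = 0.0285). AHA1, among the main pumps, fell in Col-O shoots (log2 -0.47) and aba2-3 roots (log2 -0.50), and AHA11 fell in aba2-3 roots (log2 -0.87). In aba2-3 shoots no AHA gene was called or had an unadjusted p under 0.05. Of 26 tested SAUR genes outside the members, 2 rose and none fell with IAA in the shoots of each line.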

How the data were processed

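RNA was extracted with a column kit and cDNA made with the SMARTer kit, per the labels' protocols. STAR, Subread, featureCounts, edgeR, limma and TAIR10 are named in the submitters' processing notes, without roles or versions. Each deposited table lists genes with, per the file headers, 3 columns of values: count, CPM and RPKM. The deposited CPM equals the count over the library total, and the deposited RPKM equals that CPM per kilobase of exon.

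Counts of all 30 libraries were tested with edgeR 4.0.16 (R 4.3.3, limma 3.58.1): 1 mean per group, TMM scaling, default low-count filter (22156 genes kept), quasi-likelihood F test, two-sided, Benjamini-Hochberg adjustment within each of 13 comparisons, threshold 0.05. Levels in the text are CPM recomputed from the counts on TMM-scaled library totals, and RPKM from that CPM, and standard errors derive from the F values. The fitting was tested on simulated data. No replicates agreed within sampling noise (chi-square per degree of freedom 5.95 to 187, the largest between Col-O mock shoots 1 and 2). Alternatives were DESeq2 1.42.0, RLE scaling, other filters and sample sets, marker covariates, a replicate block and leaving out each library. Same-numbered IAA and mock libraries of Col-O shoots were positively correlated in their deviations (r = 0.349, 0.138 and 0.130), though IAA shoot 3 correlated best with another mock shoot. A block there gave 12 member calls, the same 12. The naming rule took the members called in each comparison, with full statistics for the 12 largest, the copy-rich clusters and the partner lists. Other genes named stand at the ends of a ranking, chosen after their values were seen. The members and lists were chosen with earlier results of these data known. Promoters and coding starts come from RefSeq TAIR10.1.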

Additional observations from a re-analysis of the deposited data

Results flagged for a closer look

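The response of SAUR72 to ABA differed between root and shoot of Col-O, by a log2 difference of -1.03 in the interaction test. SAUR72 was lower with ABA in roots, at 12.1, 9.30 and 14.4 CPM in ABA roots against 21.8, 22.0 and 24.8 CPM in mock roots. In shoots it had 20.9, 18.7 and 25.6 CPM with ABA against 16.6, 21.5 and 22.9 CPM in mock, which overlapped. In 10 of the 12 fits that leave out 1 library of this test the difference did not pass the threshold. It also did not pass with the marker covariates, at -0.85 (adjusted p = 0.0969), without the 5 root libraries with most shoot markers, at -0.93 (0.182), or on the own groups, at -1.07 (0.0985), while DESeq2 and a replicate block kept it.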

How the results depend on the processing

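Directions held: over 902 alternative values of called members, 822 kept their call, 80 lost it and 0 turned round. Of 636 values with 1 library left out, 464 kept their call and 172 lost it. Of the 105 called changes pooled here, 41 were between root and shoot, where 39 to 40 were called without 1 library. The pooled shares are therefore not those of the hormone and line comparisons alone. Counts of members called moved more. With IAA in aba2-3 shoots 19 were called, against 33 in a fit on the comparison's own groups, 29 on the shoot libraries alone and 7 to 14 without 1 library. With IAA in Col-O shoots 12 were called, against 26 on the own groups, 31 on shoots alone, 27 with marker covariates for carried-over RNA of root or shoot, 28 without the 5 root libraries with most shoot RNA, and 3 to 11 without 1 library. With IAA in aba2-3 roots 13 were called, against 31 with the covariates, 29 without the 5 libraries, 20 by DESeq2, 6 on roots alone and 7 to 11 without 1 library. With IAA in Col-O roots 4 were called, against 1 with no filter on low counts, 7 with the covariates, 2 on the own groups, 2 on roots alone and 1 to 7 without 1 library. With ABA 9 were called in roots, against 28 with the covariates and 6 to 11 without 1 library. In shoots 3 were called with ABA, against 5 without the 5 libraries, 2 on the own groups and 2 to 3 without 1 library. On shoots alone 7 were called, 6 lower and 1 higher. Between mock roots of the lines 2 were called, against 14 with the covariates, 5 without the 5 libraries, 8 by DESeq2, 1 on roots alone and 1 to 2 without 1 library. Between mock shoots 1 was called, against 0 with no filter, 4 without the 5 libraries, 4 by DESeq2, 9 on shoots alone and 0 to 2 without 1 library. The covariates gave 2 there and the own groups 1, none of them SAUR72. Between root and shoot 41 were called, and 39 to 40 without 1 library. The tissue-by-IAA count of 0 was 3 with the covariates, 3 without the 5 libraries and 0 to 8 without 1 library. The tissue-by-ABA count of 1 was 0 with no filter, 7 with the covariates, none of them SAUR72, 1 without the 5 libraries, SAUR50 in place of SAUR72, 0 on the own groups and 0 to 1 without 1 library. The genotype-by-IAA count of 0 in roots was 15 with the covariates, 7 without the 5 libraries and 0 to 7 without 1 library, and in shoots it was 0 throughout the fits without 1 library. The cause of these moves was not tested. RLE scaling and a mean count of at least 20 moved no count by over 1.5 times. The fits on 1 tissue were chosen after seeing the data.

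With the replicate number as a block, the count was 1 for IAA in Col-O roots and 2 between mock shoots of the lines, and no other count moved by over 1.5 times. Apart from IAA in Col-O shoots, at least 1 same-numbered pair per comparison correlated at 0.1 or below. Some pairs there correlated more, with r = 0.390 for replicate 1 with IAA and 0.367 for replicate 1 with ABA in Col-O roots. Whether same-numbered libraries were paired is therefore not settled. The copy-rich cluster genes had few counts in most mock root libraries, which limits the precision of their root values.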
